A study of Mus musculus with 12 samples.

Results

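Tet1 knockout was compared with wild type across every gene of the deposited count table in primordial germ cells, the embryonic precursors of oocytes and sperm, of female mouse embryos at E14.5. The members of the comparison were 6 of the 12 libraries of the series, assigned by genotype in the sample titles. Of these, 3 were of genotype KO Tet1-/- (KO1, KO2 and KO3) and 3 were wild type (WT1, WT2 and WT3). The other 6 libraries, used for the estimate of spread and for 2 side comparisons, carried Tet1HxD/HxD, a catalytically dead TET1 (HxD), or Tet1V/V, described as stalling at 5-hydroxymethylcytosine (V). Cells of all 4 groups were sorted by an Oct4-GFP reporter, and polyadenylated RNA from 5000 cells per library was sequenced. The labels name neither the deleted part of Tet1 nor the strain, and they do not say whether replicate libraries are separate embryos, litters or pools. The p-values therefore reflect how far these libraries vary, and some of that variation may be technical.

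TET1 is a dioxygenase that oxidizes 5-methylcytosine in DNA to 5-hydroxymethylcytosine and further products, and it also binds chromatin partners such as SIN3A and OGT. Primordial germ cells lose most of their DNA methylation before and after they reach the gonad, and a set of germline genes with methylated promoters in somatic cells is switched on in that period. In the fetal ovary the cells then leave the mitotic, pluripotency-related state and enter meiosis in response to retinoic acid and BMP signals, with STRA8 and its partner MEIOSIN as the transcriptional switch.

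Total counts were 26591362, 25219140 and 22737470 in the KO libraries, and 28323877, 20557016 and 24788687 in the WT libraries. At least 1 read was counted for 12568 to 17356 genes in KO libraries and for 14332 to 15150 genes in WT libraries. Libraries differed in how many rarer genes they captured: of 2936 genes with a mean level of 1 to 5 CPM (counts scaled to the size of the library), the share listed at 0 was 27.1%, 2.59% and 45.7% in KO1, KO2 and KO3, and 16.2%, 13.3% and 20.6% in WT1, WT2 and WT3. A list of 10 germ cell markers summed to 3294 to 3631 CPM in KO and 3668 to 4110 CPM in WT libraries, lower in every KO library. Of the 10 markers, 10 were tested, so the sorted cells carried the RNAs of their label. Several markers are part of the results below, among them Dazl and Mael, called lower, and Tfap2c, called higher. Pou5f1, the gene that drives the sorting reporter, is also in the list. Endothelial markers overlapped between the groups. Markers of the gonadal supporting cells (15 genes, 11 tested, none called) summed to 17.4 to 20.6 CPM in KO and 32.5 to 60.9 CPM in WT, with Sox9 at 0 in all 6 libraries and Foxl2, Amh, Gata4 and Nr5a1 below 5 CPM in each. The largest contributor was Irx3, at 11.8, 14.04 and 8.36 CPM in KO and 26.7, 17.9 and 19.8 CPM in WT, with no overlap but no call (adjusted p = 0.385). Stromal markers summed to 3.13 to 16.4 CPM in KO and 5.86 to 9.48 CPM in WT, and blood markers to 1.20 to 36.3 CPM in KO and 5.18 to 48.6 CPM in WT, with the highest value in WT1. The 4 Y-linked genes examined summed to 2.73 CPM in KO3 and 11.03 CPM in WT3 and to at most 0.041 CPM in the other KO and WT libraries.

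Of 16166 tested genes, 197 (1.22%) differed between KO and WT at an adjusted p under 0.05 in edgeR's quasi-likelihood test. They were 117 genes higher in KO (0.724%) and 80 lower (0.495%). These 2 shares are the background for the counts of calls in the lists below. Scaling by DESeq2's median-ratio factors instead of TMM gave 90 higher and 95 lower. Changes were larger among the genes that fell: their median log2 fold change was -1.44 (10th to 90th percentile -2.95 to -0.89), with 25 of 80 beyond 4-fold, whereas those that rose had a median of 1.06 (0.79 to 1.44), with 6 of 117 beyond 4-fold and 54 under 2-fold. Over all tested genes the median was -0.02 (10th to 90th percentile -1.91 to 1.05), a range that also reached further below 0 than above. The called sets differed in level too: 36 of the 80 lower genes and 26 of the 117 higher genes had a mean of 5 to 50 CPM. Calls were most frequent among genes at a mean of 50 to 500 CPM, with 1.84% higher and 0.898% lower, and rarer below 5 CPM: 0.0363% higher and 0% lower under 1 CPM, and 0.103% and 0.0342% from 1 to 5 CPM.

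**Figure D1:**
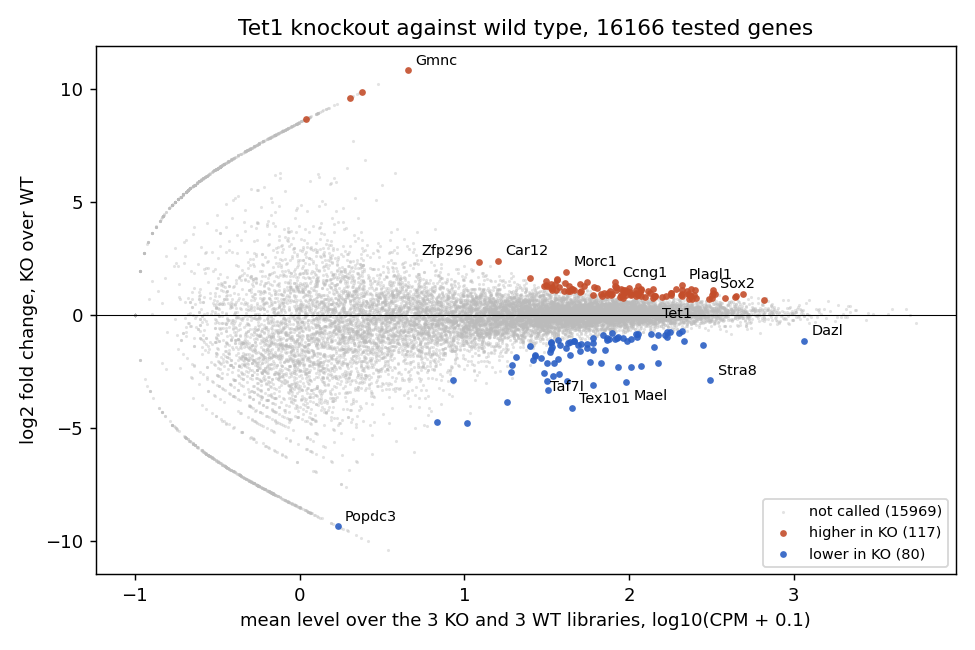
Log2 fold change of KO over WT (vertical axis) against mean level over the 6 libraries (horizontal axis, log10 of CPM plus 0.1) for 16166 genes; orange points are the 117 genes called higher and blue points the 80 called lower. Most called points lie above 5 CPM, the lower ones have a median further from 0 than the higher ones (-1.44 and 1.06), and the arcs at the left edge are genes at 0 in every library of 1 group.

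In 115 of the 117 higher genes and 78 of the 80 lower genes the KO libraries did not overlap the WT libraries. The same libraries gave the calls, so this separation is no separate support for them. Over all tested genes 8.17% had all KO libraries above all WT libraries and 8.36% had all below. WT libraries were not alike in these genes. WT1 had the highest WT level in 66 of the 80 lower genes (82.5%, against 38.9% of all tested genes) and the lowest WT level in 92 of the 117 higher genes (78.6%, against 41.2%). WT3 stood nearest to KO most often, with the lowest WT level in 54 of the lower genes and the highest in 70 of the higher genes. The count of calls was 31 genes without WT1, 357 without WT3, 77 without WT2, 77 without KO2 and 88 without KO3. Of the 197 genes, 26 were still called without WT1 and 168 without WT3. WT3 was also the WT library with Y-linked counts. The 3 libraries of the series with the most rarer genes at 0 were HxD1, KO1 and KO3. Leaving them out left KO2 as the only KO library, so counts of calls from that fit are not given.

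**Figure D2:**
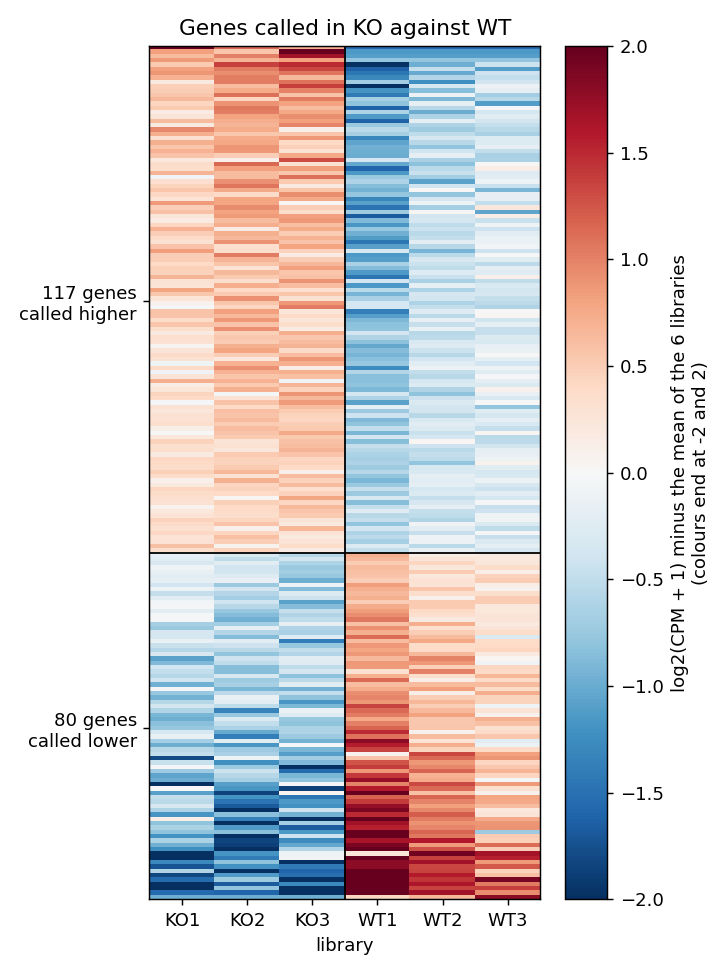
Level of the 197 called genes (rows, sorted by fold change) in the 3 KO libraries (left) and 3 WT libraries (right), as log2(CPM + 1) minus the mean of the 6 libraries. Within WT, WT1 has the strongest colour in most rows of both blocks.

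With each of the 12 libraries of the series left out in turn, 22 genes were called in every fit. The 7 higher ones were Ccng1, Morc1, Plagl1, Slc25a13, Txnrd1, Pls3 and AU015836. The 15 lower ones were Stra8, Gm4969, Meioc, Dazl, Sycp1, Dmc1, Mael, Tdrd1, Gpat2, Tex101, Taf7l, Brdt, Tuba3a, Tsc22d3 and Gm7972. All but 3 of these lower genes, Tsc22d3, Gm7972 and Gpat2, are known for meiosis or as germline genes methylated in somatic cells, or both; Gpat2 acts in the piRNA pathway. Pls3, AU015836 and Gm7972 fall outside the rule for named genes and were chosen after their values were seen.

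**Figure D3:**
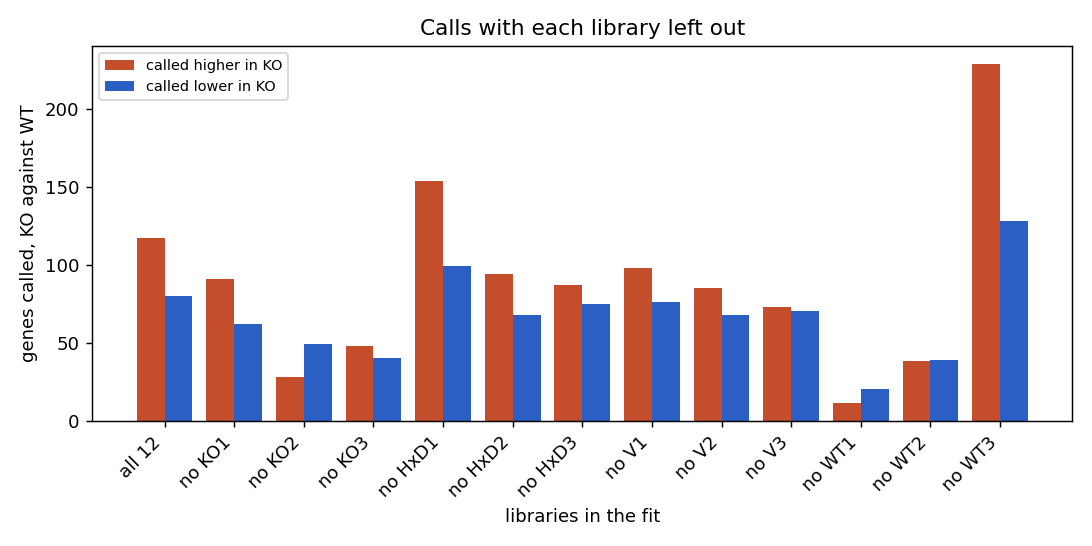
Genes called higher (orange) and lower (blue) in KO against WT with all 12 libraries and with each library left out. The lowest bars, 11 higher and 20 lower, are without WT1 and the highest, 229 higher and 128 lower, are without WT3.

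Tet1 itself was at 131, 158 and 80.8 CPM in KO libraries, against 91.4, 180 and 215 CPM in WT libraries. The groups overlapped and the gene was not called (log2 fold change -0.40 ± 0.24 SE, adjusted p = 0.484). Reads outside the deleted part would still be counted, so this level does not check the KO label. Against the other mutants Tet1 had log2 fold changes of -0.99 for KO over HxD and -0.73 for KO over V, neither called (adjusted p = 1 and 0.945). Of its relatives, Tet2 was at 55.5, 56.1 and 24.3 CPM in KO and 27.1, 37.0 and 42.9 CPM in WT. Tet3 was at 4.23, 5.13 and 8.496 CPM in KO and 15.4, 18.7 and 13.2 CPM in WT; every KO value lay below every WT value, but the gene was not called (log2 -1.40 ± 0.64, adjusted p = 0.338).

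Germline genes that carry methylated promoters in somatic cells were lower in many cases. Of 38 tested, 13 fell in KO, 2 rose and 23 were not called (34.2% lower, against 0.495% of all tested genes), with a median log2 fold change of -0.91. Mael, which acts in piRNA-guided transposon silencing, was at 17.7, 25.7 and 22.1 CPM in KO libraries, against 211, 154 and 144 CPM in WT libraries. The 3 KO values were close together and far below every WT value (log2 -2.96 ± 0.29, adjusted p = 7.21e-07), the lowest adjusted p of all genes. Tex101, a germ cell surface protein gene, was at 2.14, 5.30 and 7.22 CPM in KO and 155, 60.4 and 40.1 CPM in WT (log2 -4.12 ± 0.52, adjusted p = 6.03e-05). Taf7l, a germ cell paralogue of a general transcription factor subunit, was at 20.98, 6.38 and 10.1 CPM in KO and 196, 84.1 and 45.3 CPM in WT (log2 -3.12 ± 0.50). Brdt, a testis-enriched bromodomain gene, was at 15.8, 6.29 and 9.82 CPM in KO and 80.2, 77.8 and 35.1 CPM in WT (log2 -2.60 ± 0.39). The groups did not overlap in any of these genes, and WT1 was the highest WT library in each.

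The other called members of the list were Dazl, Sycp1, Sycp3, Syce1, Tdrd1, Tex11, Mov10l1, Tuba3a and Slc25a31. Slc25a31, a germ cell ADP/ATP carrier, was at 81.5, 28.6 and 11.8 CPM in KO and 307, 152 and 126 CPM in WT (log2 -2.26 ± 0.43), and lost its call without KO2 or WT1. Tuba3a and Tuba3b are near-identical tubulin genes whose reads could be split by the counting, so Tuba3a (log2 -1.18) is uncertain. The members that rose were Rhox6 and Rpl39l. Rhox6, an X-linked homeobox gene with close copies, was at 384, 331 and 487 CPM in KO and 236, 266 and 216 CPM in WT (log2 0.74 ± 0.17). Rpl39l, a ribosomal protein paralogue, had a log2 fold change of 0.89 ± 0.23. Rpl39l kept its call in 1 of the 12 leave-one-out fits and Rhox6 in 7. Members just outside the call included Stk31, Hormad1, Stag3 and Smc1b, with log2 fold changes of -0.85, -0.97, -0.63 and -0.79 and adjusted p of 0.0530, 0.0532, 0.0581 and 0.0603. The count of lower members was 8 without WT1.

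Promoter sequences are shown for Mael, Tex101, Brdt and Sycp1, of which the first 3 are described above and Sycp1 below, because methylated CpG is the substrate of TET1, and for Ccng1 and Slc25a13 as genes that rose. They are RefSeq windows of 250 bases before to 50 after the annotated start on build GRCm38.p6, printed 5′ to 3′ on the gene's strand, with CpG dinucleotides in capitals. The windows are chr1:166238695-166238994 (minus strand, 24 CpG) for Mael, chr7:24672001-24672300 (minus, 19 CpG) for Tex101, chr5:107330944-107331243 (plus, 23 CpG) for Brdt, chr3:102936051-102936350 (minus, 21 CpG) for Sycp1, chr11:40755237-40755536 (minus, 14 CpG) for Ccng1 and chr6:6217124-6217423 (minus, 17 CpG) for Slc25a13.
Mael: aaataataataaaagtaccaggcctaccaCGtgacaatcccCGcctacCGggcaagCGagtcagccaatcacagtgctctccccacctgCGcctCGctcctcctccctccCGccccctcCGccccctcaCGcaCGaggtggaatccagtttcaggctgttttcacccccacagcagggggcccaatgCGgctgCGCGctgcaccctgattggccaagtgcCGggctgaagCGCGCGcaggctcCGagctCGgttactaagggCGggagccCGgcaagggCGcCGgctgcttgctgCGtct
Tex101: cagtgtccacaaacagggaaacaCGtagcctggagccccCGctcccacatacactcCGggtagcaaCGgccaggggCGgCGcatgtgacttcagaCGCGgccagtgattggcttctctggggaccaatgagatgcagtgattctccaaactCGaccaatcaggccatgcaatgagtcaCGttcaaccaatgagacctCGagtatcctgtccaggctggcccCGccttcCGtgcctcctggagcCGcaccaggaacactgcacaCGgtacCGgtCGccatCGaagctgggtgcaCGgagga
Brdt: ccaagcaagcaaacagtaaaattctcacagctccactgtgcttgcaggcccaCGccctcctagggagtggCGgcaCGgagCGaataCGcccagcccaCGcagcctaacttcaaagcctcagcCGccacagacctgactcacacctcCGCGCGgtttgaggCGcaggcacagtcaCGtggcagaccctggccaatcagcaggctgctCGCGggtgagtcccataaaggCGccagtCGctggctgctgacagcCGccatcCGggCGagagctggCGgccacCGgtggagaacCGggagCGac
Sycp1: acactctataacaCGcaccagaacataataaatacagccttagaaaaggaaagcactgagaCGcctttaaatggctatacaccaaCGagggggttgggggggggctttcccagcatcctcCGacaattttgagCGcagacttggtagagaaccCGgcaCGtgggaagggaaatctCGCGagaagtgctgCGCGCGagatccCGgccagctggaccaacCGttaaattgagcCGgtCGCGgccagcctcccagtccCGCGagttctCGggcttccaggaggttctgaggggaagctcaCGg
Ccng1: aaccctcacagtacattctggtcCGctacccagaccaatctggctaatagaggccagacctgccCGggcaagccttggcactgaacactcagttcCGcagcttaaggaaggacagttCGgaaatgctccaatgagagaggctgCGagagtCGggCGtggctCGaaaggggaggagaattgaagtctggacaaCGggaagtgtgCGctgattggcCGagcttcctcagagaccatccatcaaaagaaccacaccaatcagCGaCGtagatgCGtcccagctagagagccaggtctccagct
Slc25a13: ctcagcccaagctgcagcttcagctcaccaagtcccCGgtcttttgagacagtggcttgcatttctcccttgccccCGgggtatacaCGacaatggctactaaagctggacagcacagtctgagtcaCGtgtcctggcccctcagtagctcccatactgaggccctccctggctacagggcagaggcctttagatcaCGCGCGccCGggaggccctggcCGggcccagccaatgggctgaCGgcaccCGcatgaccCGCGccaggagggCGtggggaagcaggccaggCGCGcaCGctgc

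The CpG content of the sets was alike: the median window held 20 CpG for genes called lower, 18 for genes called higher and 19 for all tested genes with a promoter in the table. Short motifs, 3 in all, were counted on both strands. CACGTG, the E-box that MAX-containing complexes bind, was in 9 of 14 windows (64.3%) of the germline-list genes called lower and in 8 of 26 windows (30.8%) of those tested and not called lower. It was in 15.7% of windows of all genes called lower, 5.04% of those called higher and 9.50% of those of all tested genes. CNCCTCAG, a motif bound by STRA8 in mouse meiotic cells, was in 20.5% of windows of genes called lower, 5.04% of those called higher and 8.89% of those of all tested genes. TCCCGC, a motif of E2F factors including E2F6, was in 30.1%, 29.4% and 33.0% of the same sets. Within the germline list, CNCCTCAG was in 21.4% of windows of genes called lower and 19.2% of those tested and not called lower. For TCCCGC these shares were 35.7% and 38.5%. Promoters were found for 66 of the 80 lower and 89 of the 117 higher genes, and some genes have more than 1 window. A match describes the letters and is not shown to be a site.

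Meiotic entry genes fell. Of 12 tested, 5 were lower (41.7%, against 0.495% of all tested genes), none was higher and 7 were not called. The median log2 fold change of the 12 was -1.0. Stra8, the retinoic acid-induced gene that starts meiotic transcription, was at 73.9, 32.2 and 114 CPM in KO libraries, against 977, 423 and 247 CPM in WT libraries. The lowest WT library, WT3, was still above the highest KO library, KO3, though WT1 was far above WT3 (log2 -2.90 ± 0.45, adjusted p = 0.000907). Gm4969, the older symbol of Meiosin, was at 9.92, 14.2 and 4.75 CPM in KO and 91.5, 84.3 and 47.0 CPM in WT (log2 -2.95 ± 0.44, adjusted p = 0.000697). Meioc, which stabilizes meiotic transcripts, was at 41.5, 17.6 and 45.5 CPM in KO and 237, 137 and 136 CPM in WT (log2 -2.29 ± 0.39). Dazl, an RNA-binding protein that licenses germ cells for meiosis, was the most abundant of these genes, at 846, 608 and 703 CPM in KO and 1923, 1666 and 1207 CPM in WT (log2 -1.15 ± 0.19, adjusted p = 0.00217). Rec8, the meiotic cohesin kleisin, was at 159, 96.0 and 222 CPM in KO and 534, 381 and 295 CPM in WT (log2 -1.34 ± 0.26), and lost its call without KO2 or WT1 (adjusted p up to 0.0786).

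Of the 7 members not called, Zglp1, a BMP-responsive factor of the oogenic programme, was at 11.7, 16.4 and 4.05 CPM in KO and 33.9, 31.6 and 19.9 CPM in WT (log2 -1.41 ± 0.45, adjusted p = 0.126). Msx1 and Msx2, BMP targets, had log2 fold changes of -0.86 and 0.12, and Ythdc2, the partner of MEIOC, one of -0.13. Neither the retinoic acid pathway (15 tested) nor the BMP pathway (20 tested) had a called member, with medians of 0.07 and -0.12. In the BMP list, Id1, a direct target, was at 58.3, 57.5 and 86.8 CPM in KO and 152, 105 and 92.6 CPM in WT (log2 -0.79 ± 0.22, adjusted p = 0.0709), and the receptor gene Bmpr1a had a log2 fold change of -0.14.

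**Figure D4:**
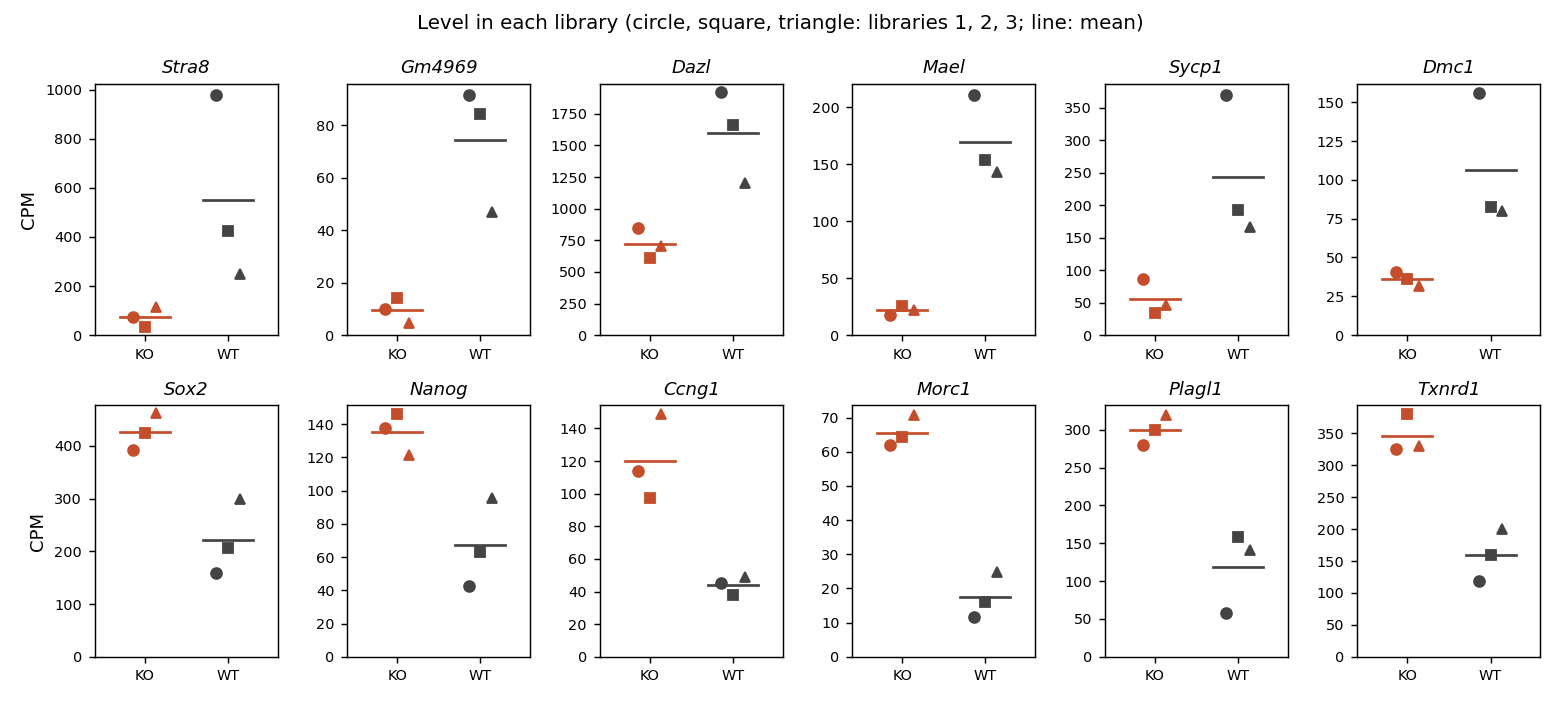
CPM (vertical axis, from 0) of 12 genes in the 3 KO libraries (orange, left) and the 3 WT libraries (grey, right); circle, square and triangle are libraries 1, 2 and 3 and the line is the mean. The KO libraries lie below all WT libraries for the upper 6 genes and above them for the lower 6, and WT1 (grey circle) is the WT library farthest from KO in all but Ccng1, where WT2 is.

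Chromosome axis and synapsis genes fell as well. Of 17 tested genes of the synaptonemal complex, axis and telomere attachment, 5 were lower and none was higher. The lower share was 29.4%, against 0.495% of all tested genes. All 17 had a negative log2 fold change, against 51.1% of all tested genes, and their median was -1.07. Sycp1, the transverse filament of the complex, was at 87.1, 33.3 and 46.3 CPM in KO libraries, against 370, 192 and 167 CPM in WT libraries (log2 -2.13 ± 0.34, adjusted p = 0.00162). Sycp2, an axis protein, was at 11.3, 5.51 and 10.7 CPM in KO and 86.3, 42.1 and 50.4 CPM in WT (log2 -2.70 ± 0.51, adjusted p = 0.00925). For both genes KO and WT were well apart. Sycp3, its axis partner, was at 17.4, 9.81 and 39.3 CPM in KO and 183, 58.0 and 40.5 CPM in WT, so that KO3 and WT3 nearly met (log2 -2.08 ± 0.45, adjusted p = 0.0176; 0.340 as the adjusted p without WT1). Syce1, a central element gene, had a log2 fold change of -1.01 ± 0.25, and 4930447C04Rik, the older symbol of Six6os1, one of -1.07 ± 0.25. Hormad1, which marks unsynapsed axes, was not called (log2 -0.97 ± 0.26, adjusted p = 0.0532). The list had 1 lower gene without KO2, 1 without WT1 and 3 without KO3, while Sycp1 was called in every fit.

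Recombination genes had 3 lower calls. Of 16 tested genes of meiotic DNA breaks, 15 had a negative log2 fold change (median -0.52), against 51.1% of all tested genes. The 1 called (6.25%, against 0.495% of all tested genes) was Zcwpw1, a reader of the histone marks laid down by PRDM9. It was at 180, 147 and 115 CPM in KO and 299, 225 and 248 CPM in WT (log2 -0.80 ± 0.19, adjusted p = 0.0340). That call was lost without KO2, KO3, WT1 or WT2. Of 27 tested genes of strand exchange and crossover, 2 fell (7.41%, against 0.495% of all tested genes), with a median of -0.45. Dmc1, the meiotic recombinase, was at 40.7, 36.3 and 31.8 CPM in KO and 156, 82.5 and 80.3 CPM in WT, with no overlap and tight KO values (log2 -1.55 ± 0.25, adjusted p = 0.00162). Tex11, an X-linked crossover gene, was at 32.0, 19.4 and 6.91 CPM in KO and 88.9, 65.2 and 48.8 CPM in WT (log2 -1.80 ± 0.39), and was not called without KO2, KO3, WT1 or WT2. Spo11, which makes the breaks, was at 11.6 to 14.95 CPM in KO and 23.9 to 41.2 CPM in WT (log2 -1.22 ± 0.46, adjusted p = 0.226). Of 18 cohesin genes, Rec8 was the 1 called (5.56%, against 0.495% of all tested genes) and the median log2 fold change was -0.01. The count of lower cohesin calls was 0 without KO2 or WT1, 2 without KO1 or WT3 and 3 without HxD1. Over the 5 meiotic lists together, 13 of 89 tested genes fell (14.6%) and none rose, with a median log2 fold change of -0.55; 36 of the 89 (40.4%) had all KO libraries below all WT libraries, against 8.36% of all tested genes.

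Summed supporting cell markers were also lower in every KO library than in every WT library, with the highest sum in WT1, at 60.9 CPM. Their part in the result for the meiotic genes was not tested. In RNA from many cells, fewer cells that express a gene and less RNA of it per cell cannot be told apart.

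Among 17 tested germ cell RNA-binding proteins, Dazl and Ddx25 fell (11.8%, against 0.495% of all tested genes) and 15 were not called (median -0.30). Ddx25, a germ cell RNA helicase, was at 31.7, 12.8 and 20.9 CPM in KO and 75.9, 55.0 and 51.3 CPM in WT (log2 -1.48 ± 0.33, adjusted p = 0.0223) and was not called without KO2, KO3, WT1 or WT2. Ddx4, the general germ cell marker also known as VASA, was at 495, 464 and 366 CPM in KO and 714, 610 and 663 CPM in WT (log2 -0.58 ± 0.20, adjusted p = 0.169).

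The piRNA pathway, which silences transposons in germ cells with small RNAs, had 6 of 22 tested genes lower, 1 higher and 15 not called. The shares were 27.3% lower and 4.55% higher, against 0.495% and 0.724% of all tested genes, with a median of -0.74. The fallen members were Mael, Tdrd1, Tdrd7, Mov10l1, Gpat2 and Btbd18. Gpat2, a mitochondrial acyltransferase relative needed for piRNA production, was at 70.1, 88.4 and 71.6 CPM in KO and 252, 183 and 189 CPM in WT (log2 -1.44 ± 0.20, adjusted p = 0.000346). Tdrd1, a tudor-domain scaffold, was at 19.11, 11.2 and 9.29 CPM in KO and 62.2, 61.6 and 47.4 CPM in WT (log2 -2.11 ± 0.38). Btbd18, a nuclear factor for transcription of piRNA precursors, was at 0.572, 5.71 and 15.8 CPM in KO and 72.1, 44.8 and 50.9 CPM in WT, with a wide spread within KO (log2 -2.93 ± 0.62, adjusted p = 0.0165). No PIWI gene was called: Piwil2, a PIWI protein of fetal and postnatal germ cells, was at 207, 224 and 218 CPM in KO and 247, 284 and 251 CPM in WT (log2 -0.27 ± 0.18, adjusted p = 0.530). Morc1, which represses transposons in germ cells, rose, at 61.9, 64.3 and 70.6 CPM in KO and 11.6, 16.1 and 24.7 CPM in WT. Its KO values were close together and far above the highest WT value (log2 1.91 ± 0.35, adjusted p = 0.00534). The list had 3 lower members without KO2 and 3 without WT1, and Morc1 was called in every fit.

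**Figure D5:**
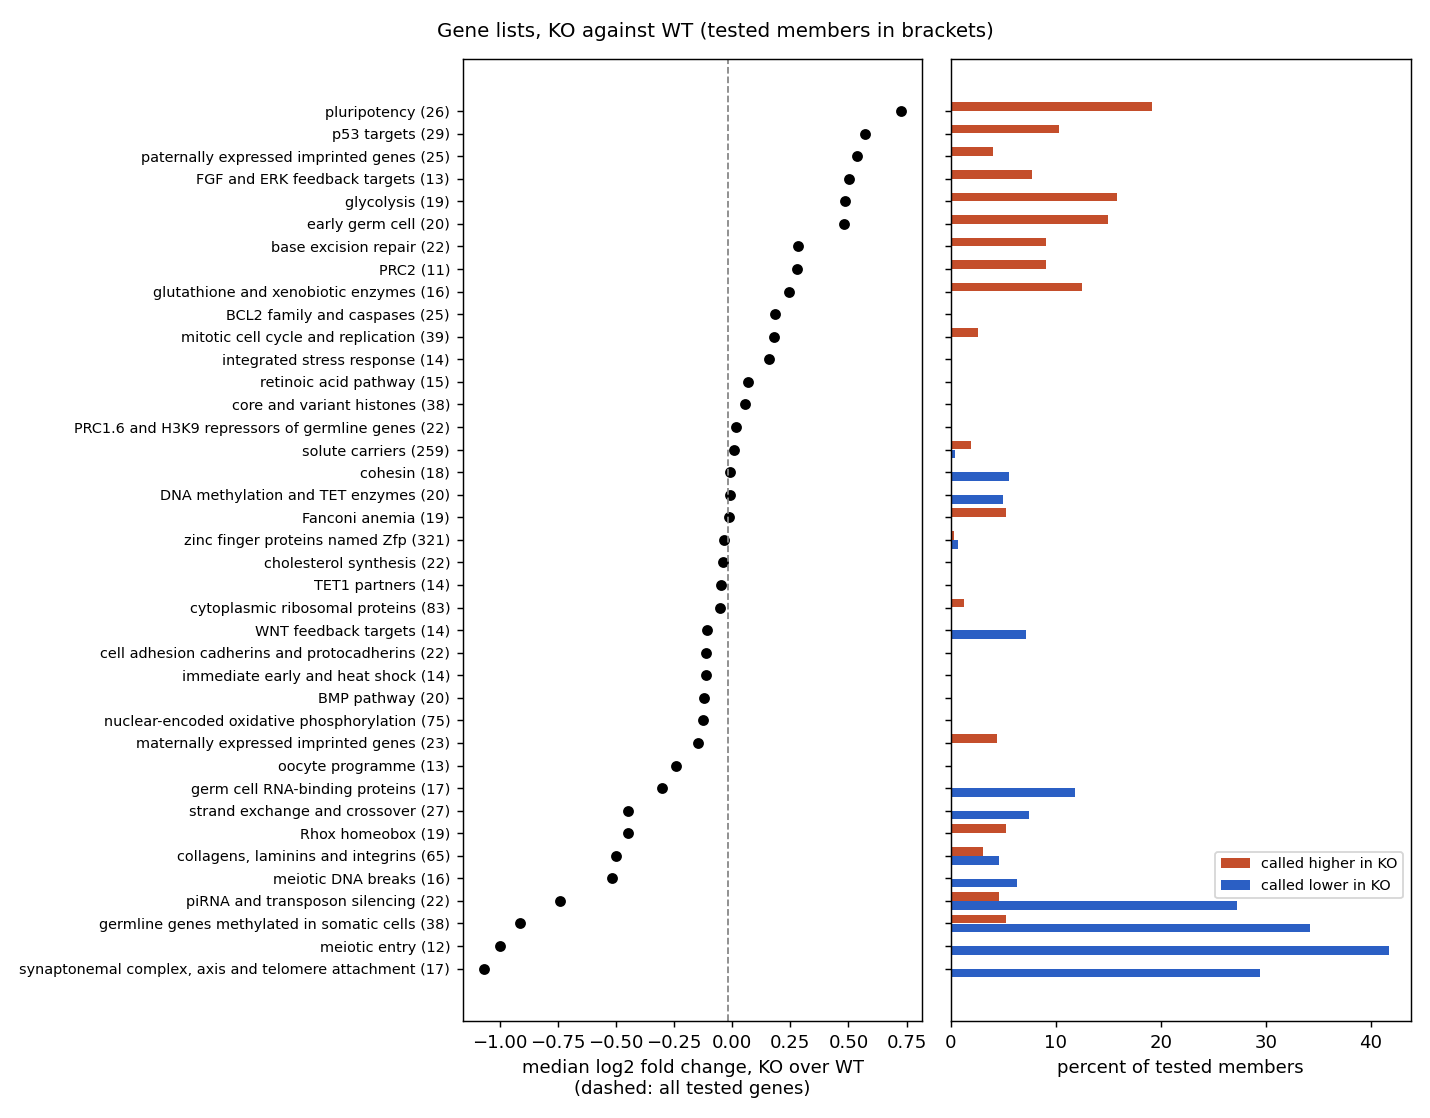
Median log2 fold change of KO over WT for the lists with at least 10 tested members, cell type markers aside (left; dashed line, all tested genes) and the percent of tested members called higher (orange) and lower (blue) in KO (right). The lowest medians are those of synaptonemal, meiotic entry, germline and piRNA genes, the cohesin list is in the middle, and pluripotency, p53 target and paternally expressed imprinted genes are at the top.

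Pluripotency genes were higher. Of 26 tested, 5 rose (19.2%, against 0.724% of all tested genes), none fell and 21 were not called. A positive log2 fold change was found in 23 of them, against 48.6% of all tested genes, and the median was 0.73. Sox2, a core pluripotency factor, was at 392, 424 and 462 CPM in KO libraries, against 159, 206 and 300 CPM in WT libraries (log2 0.94 ± 0.20, adjusted p = 0.0156). Nanog, another core factor, was at 138, 146 and 121 CPM in KO and 42.9, 63.2 and 95.4 CPM in WT (log2 1.01 ± 0.23, adjusted p = 0.0273). In both genes WT1 was lowest and WT3 highest among the WT libraries, and all KO libraries were above WT3. Esrrb, an orphan nuclear receptor, was at 234, 322 and 235 CPM in KO and 59.0, 104 and 196 CPM in WT (log2 1.14 ± 0.26). Fbxo15, a target of OCT4 and SOX2, had a log2 fold change of 1.16 ± 0.24. Zfp296, a zinc finger protein of the stem cell network, was at 16.7, 19.7 and 24.3 CPM in KO and 2.27, 6.24 and 3.70 CPM in WT (log2 2.32 ± 0.55, adjusted p = 0.0316).

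Pou5f1, the gene that drives the sorting reporter, was at 621, 401 and 357 CPM in KO and 318, 204 and 223 CPM in WT. All KO values were above all WT values, but the adjusted p was 0.0519 (log2 0.89 ± 0.23). Klf2 (log2 1.04), Tfcp2l1 (0.95) and Sall4 (0.69) had adjusted p of 0.0504, 0.0561 and 0.0583, whereas Lin28a, at 529, 584 and 492 CPM in KO and 404, 458 and 588 CPM in WT, overlapped (log2 0.15 ± 0.17). The count of higher pluripotency genes was 1 without KO3, WT1 or WT2, 2 without KO2, 8 without HxD1 and 12 without WT3; none of the 5 genes kept its call in all 12 fits.

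Of 20 tested early germ cell genes, 3 rose (15%, against 0.724% of all tested genes) and 17 were not called (median 0.48). Tfap2c, a transcription factor of germ cell specification, was at 321, 287 and 301 CPM in KO and 71.8, 146 and 215 CPM in WT (log2 1.07 ± 0.25, adjusted p = 0.0262). Ifitm3, a surface marker of early germ cells with close copies, was at 120, 167 and 198 CPM in KO and 57.7, 85.2 and 78.9 CPM in WT (log2 1.13 ± 0.25). Elf3, an ETS factor, had a log2 fold change of 1.20 ± 0.30 at 28.3 to 65.4 CPM in KO and 17.4 to 25.8 CPM in WT. Kit, the receptor for stem cell factor, and Dppa3 were not called, with log2 fold changes of 0.52 and 0.38. No early germ cell gene was called without KO2, KO3, WT1 or WT2, and 5 were without WT3.

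p53 target genes had 3 higher members of 29 tested (10.3%, against 0.724% of all tested genes) and none lower. Their median log2 fold change was 0.57. Ccng1, an atypical cyclin induced by p53, was at 114, 97.3 and 149 CPM in KO libraries, against 45.4, 38.2 and 49.0 CPM in WT libraries. The groups were far apart, and the adjusted p was the lowest among the genes that rose (log2 1.44 ± 0.21, adjusted p = 0.000653). Cdkn1a, which encodes the cell cycle inhibitor p21, was at 81.5, 80.8 and 100.4 CPM in KO and 47.0, 48.5 and 49.99 CPM in WT, with little spread in WT (log2 0.85 ± 0.21, adjusted p = 0.0395). Gtse1, a regulator of p53 in the G2 phase, was at 207, 210 and 221 CPM in KO and 95.9, 131 and 137 CPM in WT (log2 0.81 ± 0.21, adjusted p = 0.0478). Trp53 itself was at 179, 214 and 210 CPM in KO and 84.2, 88.2 and 183 CPM in WT, and Mdm2, its ubiquitin ligase, overlapped between groups; neither was called (log2 0.76 and 0.25, adjusted p = 0.125 and 0.585). None of 25 BCL2 family and caspase genes was called (median 0.19): Bbc3, which encodes PUMA, had a log2 fold change of 0.57 ± 0.42, Bax one of 0.45 ± 0.20 and Apaf1 one of 0.95 ± 0.27 (adjusted p = 0.587, 0.315 and 0.0794). Ccng1 was the 1 called target without any 1 of KO1, KO2, KO3, V3, WT1 or WT2, and 6 were called without WT3.

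Enzymes of DNA methylation were mostly not called (5% lower, against 0.495% of all tested genes). Of 20 tested, Uhrf1, which brings DNMT1 to newly replicated DNA, was the 1 that fell, at 42.7, 42.2 and 60.4 CPM in KO libraries, against 103, 113 and 78.2 CPM in WT libraries (log2 -1.02 ± 0.23, adjusted p = 0.0223), with the call lost without KO1, KO2, WT1 or WT2. Dnmt1 was at 716, 895 and 796 CPM in KO and 670, 824 and 836 CPM in WT (log2 0.05 ± 0.16). Of 22 base excision repair genes, which process the products of TET oxidation among other lesions, 2 rose (median 0.28). That was 9.09%, against 0.724% of all tested genes. Lig3, a DNA ligase, was at 117, 165 and 155 CPM in KO and 75.7, 87.3 and 76.2 CPM in WT (log2 0.86 ± 0.19, adjusted p = 0.0172). Gadd45a, a stress-induced gene linked to active demethylation, was at 38.4, 35.4 and 82.8 CPM in KO and 25.8, 20.5 and 20.9 CPM in WT, with KO3 well above the other KO libraries (log2 1.22 ± 0.30, adjusted p = 0.0419; 0.291 as the adjusted p without KO3). Neither repair gene was called without KO3 or without WT1.

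None of 22 tested PRC1.6 and H3K9 repressors of germline genes was called (median 0.02), with Mga, the scaffold of PRC1.6, at 381, 388 and 263 CPM in KO and 267, 312 and 310 CPM in WT (log2 0.21 ± 0.19, adjusted p = 0.675). None of 14 TET1 partner genes was called (median -0.05). Of 11 PRC2 genes, Suz12, a core subunit, rose, at 364, 417 and 359 CPM in KO and 186, 275 and 243 CPM in WT (log2 0.70 ± 0.17, adjusted p = 0.0409); it kept its call in 2 of the 12 leave-one-out fits. For PRC2 the share called higher was 9.09%, against 0.724% of all tested genes. Core and variant histones (38 tested) had no called member.

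In signalling, Spred2, an inhibitor of RAS and ERK signalling, was the 1 of 13 FGF and ERK feedback targets that rose, at 91.4, 127 and 129 CPM in KO and 23.2, 48.7 and 78.3 CPM in WT (log2 1.21 ± 0.28, adjusted p = 0.0267). Nkd1, a WNT-induced inhibitor of WNT signalling, was the 1 of 14 WNT feedback targets that fell, at 7.44, 10.9 and 8.36 CPM in KO and 46.1, 27.5 and 22.7 CPM in WT (log2 -1.85 ± 0.44, adjusted p = 0.0341). The higher share of the FGF and ERK list was 7.69%, against 0.724% of all tested genes. The lower share of the WNT list was 7.14%, against 0.495%. The calls of Spred2 and Nkd1 were lost without KO2, KO3, WT1 or WT2, that of Nkd1 also without KO1. Without WT3, 5 FGF and ERK targets were called. Sex-specific programmes showed no calls: of 13 tested oocyte genes none was called (median -0.24), with Sohlh2, an early oocyte factor, at 184, 176 and 204 CPM in KO and 246, 286 and 258 CPM in WT (log2 -0.49 ± 0.16, adjusted p = 0.161). Of 7 tested male germ cell genes none was called, and Nanos2, the male fate gene, was listed at 0 in all 6 libraries.

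Imprinted genes, whose parental methylation marks are erased in germ cells at this stage, had 2 called members. Of 25 tested paternally expressed genes, Plagl1, a zinc finger growth regulator, rose, at 280, 300 and 319 CPM in KO libraries, against 58.3, 159 and 140 CPM in WT libraries. The KO libraries were close together and all above the highest WT library, and the gene was called in every leave-one-out fit (log2 1.33 ± 0.24, adjusted p = 0.00455). Of 23 tested maternally expressed genes, Phlda2, a growth-restraining placental gene, rose, at 382, 358 and 568 CPM in KO and 173, 236 and 273 CPM in WT (log2 0.94 ± 0.21, adjusted p = 0.0227); the call was lost without KO3, WT1 or WT2. The shares called higher were 4% of paternally and 4.35% of maternally expressed genes, against 0.724% of all tested genes. Medians were 0.54 for the paternally and -0.15 for the maternally expressed genes. Peg3 was at 369, 587 and 293 CPM in KO and 198, 341 and 510 CPM in WT, H19 at 176, 303 and 262 CPM in KO and 148, 332 and 253 CPM in WT, and both overlapped. Cdkn1c, a cell cycle inhibitor, was at 83.8, 58.5 and 70.8 CPM in KO and 156, 96.1 and 90.9 CPM in WT (log2 -0.69 ± 0.22, adjusted p = 0.125). Total counts do not say which parental allele was expressed.

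Glycolysis genes had 3 of 19 tested members higher (15.8%, against 0.724% of all tested genes) and none lower, with a median of 0.48. Slc2a3, a glucose transporter, was at 243, 372 and 366 CPM in KO and 64.3, 159 and 226 CPM in WT (log2 1.13 ± 0.27, adjusted p = 0.0340). Hk1, the first enzyme of the pathway, was at 94.9, 164 and 91.5 CPM in KO and 35.7, 41.3 and 74.2 CPM in WT (log2 1.21 ± 0.25, adjusted p = 0.0147). Ldhb, a lactate dehydrogenase subunit, was at 295, 313 and 352 CPM in KO and 166, 171 and 228 CPM in WT (log2 0.76 ± 0.18). None of the 3 was called without KO2, WT1 or WT2, 1 was without KO3, and 5 genes were without WT3. None of 75 nuclear-encoded oxidative phosphorylation genes was called (median -0.13).

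Of 259 tested solute carriers, 5 rose (1.93%, against 0.724% of all tested genes) and 1 fell (0.386%, against 0.495%). Slc25a13, the mitochondrial aspartate and glutamate carrier citrin, was at 166, 186 and 124 CPM in KO libraries, against 51.3, 76.7 and 71.9 CPM in WT libraries (log2 1.25 ± 0.21, adjusted p = 0.00217). Slc25a4 and Slc25a5, the ADP/ATP carriers of somatic tissues, had log2 fold changes of 0.85 ± 0.18 and 0.91 ± 0.20, while their germ cell relative Slc25a31 was the member that fell. The other members that rose were Slc2a3, given above, and Slc19a2, a thiamine transporter. The count of higher members was 1 without KO3 or WT1, 2 without KO2, 3 without WT2 and 8 without HxD1. Txnrd1, the cytosolic thioredoxin reductase, was at 325, 381 and 331 CPM in KO and 118, 160 and 200 CPM in WT (log2 1.12 ± 0.18, adjusted p = 0.00162). Gstm1, a glutathione transferase with close copies, was at 34.8, 63.3 and 66.4 CPM in KO and 18.6, 12.5 and 23.4 CPM in WT (log2 1.59 ± 0.33). Txnrd1 and Gstm1 were the 2 called of 16 glutathione and xenobiotic genes (12.5%, against 0.724% of all tested genes). Of these 2, Txnrd1 alone was called in every fit. Of 39 mitotic cell cycle and replication genes, Ccnd3, a G1 cyclin, rose, at 152, 216 and 212 CPM in KO and 50.02, 98.7 and 112 CPM in WT (log2 1.15 ± 0.23, adjusted p = 0.0130), with the call lost without KO2 or WT1 and 3 members called without WT3. The higher share of that list was 2.56%, against 0.724% of all tested genes. Skp2, a ubiquitin ligase subunit for cell cycle inhibitors outside the list, rose too (log2 1.37 ± 0.29). Its call was lost without KO2, WT1 or WT2. Of 19 Fanconi anemia genes, 1 rose (5.26%, against 0.724% of all tested genes). It was Fancm, a DNA translocase (log2 0.99 ± 0.22), which lost its call without KO2 or WT1.

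Other lists had isolated calls. Mov10, an RNA helicase that restricts retrotransposons, was the 1 of 9 tested interferon response genes that rose, at 227, 341 and 386 CPM in KO and 121, 168 and 236 CPM in WT (log2 0.86 ± 0.22, adjusted p = 0.0435), with the call held in 5 of the 12 leave-one-out fits. The higher share of the interferon list was 11.1%, against 0.724% of all tested genes. Of 65 collagens, laminins and integrins, Itgav and Col9a2 rose (log2 1.13 and 1.12) and Lamb2, Itgb5 and Col27a1 fell (log2 -1.34, -1.26 and -4.73). The shares were 3.08% higher and 4.62% lower, against 0.724% and 0.495% of all tested genes. Col27a1, a fibrillar collagen gene, was at 0, 1.45 and 0 CPM in KO and 18.9, 9.80 and 10.1 CPM in WT, and KO1 and KO3 were the KO libraries that captured the fewest genes. Its fitted log2 fold change was -11.4 without KO2, the 1 KO library with reads, and it was called in 4 of the 12 leave-one-out fits. Of 321 zinc finger genes named Zfp, Zfp296 rose and Zfp622 and Zfp512 fell. These shares of 0.312% and 0.623% compare with 0.724% and 0.495% of all tested genes. Of the 2 lower calls none was left without KO2, WT1 or WT2. No collagen, laminin or integrin was called without WT1. No member was called of 22 cholesterol synthesis genes, 14 integrated stress response genes and 14 immediate early and heat shock genes. The 22 cadherins and protocadherins and 8 mitochondrially encoded genes had no call either. Of 83 cytoplasmic ribosomal protein genes Rpl39l was the 1 called (1.2%, against 0.724% of all tested genes).

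Further genes with large changes belonged to no list. Tsc22d3, a glucocorticoid-induced leucine zipper gene, was at 4.43, 7.66 and 5.68 CPM in KO libraries, against 91.9, 56.5 and 27.7 CPM in WT libraries (log2 -3.31 ± 0.50, adjusted p = 0.000697). Dmrta2, a DMRT family transcription factor gene, was at 2.25, 4.76 and 0 CPM in KO and 41.8, 24.5 and 34.4 CPM in WT (log2 -3.84 ± 0.84, adjusted p = 0.0182). H2-K1, a class I histocompatibility gene with close copies, was at 8.01, 3.98 and 14.4 CPM in KO and 87.1, 41.6 and 28.3 CPM in WT (log2 -2.57 ± 0.50). All 3 genes had their KO libraries below every WT library; the call of Dmrta2 was lost without KO1 or WT1 and that of H2-K1 without KO2 or WT1. Among the genes that rose, Car12, a membrane carbonic anhydrase, was at 16.6, 30.6 and 33.5 CPM in KO and 2.10, 5.25 and 8.09 CPM in WT (log2 2.39 ± 0.48, adjusted p = 0.0123), and the call was lost without WT1 or WT2. Adrb3, an adrenergic receptor gene, Stox2, Soga1, Ssh1, a cofilin phosphatase gene, Fam222a and B4galnt3, a glycosyltransferase gene, rose by 1.38 to 1.63 on the log2 scale, and none of these 6 was called without WT1. Ugt8a, a glycolipid synthesis gene, was at 6.26, 6.05 and 4.67 CPM in KO and 63.6, 27.2 and 6.61 CPM in WT, so that WT3 lay beside KO (log2 -2.52 ± 0.58), and was not called without any 1 of KO1, KO2, KO3, WT1 or WT2.

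Some called genes were chosen after their values were seen because of their known roles. Pls3, an actin bundling protein gene, was at 108, 136 and 102 CPM in KO libraries, against 37.3, 42.2 and 65.2 CPM in WT libraries (log2 1.26 ± 0.23, adjusted p = 0.00455). Vim, an intermediate filament gene, was at 176, 172 and 176 CPM in KO and 62.5, 94.7 and 95.0 CPM in WT (log2 1.06 ± 0.20), and lost its call without WT1. Other cytoskeletal genes that rose were Cnn3, Fscn1, Diaph1 and Myo10, by 0.83 to 0.95 on the log2 scale. None of them was called without WT1, and Fscn1, Diaph1 and Myo10 were also lost without KO2 or WT2. Notch1, a receptor, and Hey1, a transcription factor downstream of NOTCH, rose by 1.11 and 1.19. Their calls held in 8 and 6 of the 12 leave-one-out fits. Jag2, a NOTCH ligand, fell, at 62.8, 48.5 and 68.4 CPM in KO and 110, 179 and 118 CPM in WT (log2 -1.18 ± 0.23, adjusted p = 0.00962). Its call was lost without KO2 or WT2. Atrx, a chromatin remodeller, was at 753, 740 and 437 CPM in KO and 256, 363 and 404 CPM in WT (log2 0.92 ± 0.21, adjusted p = 0.0227), a call lost without KO1, KO2, WT1 or WT2.

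A further 5 called genes were at 0 in every library of 1 group, with a mean of 2.0 to 8.96 CPM in the other. Gmnc, a regulator of multiciliated cells, had 470, 127 and 84 reads in KO libraries and 0 in each WT library, which is at least 72.1-fold higher in KO if each WT library is set to 3 counts. KO1 carried most of these reads: without it the bound was 36-fold, and the call was lost without KO1, WT1 or WT2. Was, a blood cell actin regulator, had 77, 55 and 193 reads in KO and 0 in WT (at least 36.8-fold higher), the highest count being in KO3. Of the blood markers, KO3 also held Hbb-y at 29.5 CPM and Hba-a1 at 2.82 CPM, Csf1r was at 2.94 CPM in KO1 and 8.59 CPM in WT1, and Ptprc was at 0 in all 6 libraries; their part in this result was not tested. Dcdc2a and Ttc21a were at least 30.8-fold and 16.1-fold higher in KO, and Popdc3 at least 26.4-fold lower, with 0 reads in each KO library and 48, 45 and 147 reads in WT. Without WT3 the bound for Popdc3 was 15.5-fold, and without KO3 that for Was was 21-fold. Popdc3 and Ttc21a were called in 1 of the 12 leave-one-out fits each, Dcdc2a in 2 and Was in 10. The labels mention no molecular identifiers, so the floors cover counting error only. These genes other than Gmnc are outside the rule for named genes.

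Set against the other mutants, no gene was called by the same test; this does not show that the mutants are alike. KO against HxD gave 0 called genes of 16166 (0%), with 514 (3.18%) at an unadjusted p under 0.05, 28 by DESeq2 and 0 by limma-voom. KO against V gave 0 (0%), with 747 (4.62%) at an unadjusted p under 0.05, 17 by DESeq2 and 0 by limma-voom. Dhrs7, a short-chain dehydrogenase gene that was called lower against WT (log2 -2.90 ± 0.72, at 0, 1.57 and 4.45 CPM in KO and 5.94, 21.2 and 17.6 CPM in WT), had log2 fold changes of -4.07 against HxD and -4.36 against V, neither called (adjusted p = 0.0673 and 0.0562). The call of Dhrs7 against WT was lost without KO2, V2, WT2 or WT3. Neither DESeq2 (adjusted p = 0.143) nor limma-voom (adjusted p = 0.202) called it against WT. Galnt11, a glycosyltransferase gene chosen here for its p-value, stood at log2 -1.38 against HxD (adjusted p = 0.0578) and was not called. Mael had log2 fold changes of -0.90 against HxD and -0.92 against V, Stra8 -0.92 and -0.74, Ccng1 0.22 and 0.37, and Morc1 0.76 and 0.45. These contrasts share the KO libraries with the comparison with WT.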

How the data were processed

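The authors deposited a table of raw read counts for 35976 genes in 12 libraries of polyadenylated RNA. Per the submitters' processing notes, reads were handled with STAR 2.7.10b and featureCounts 2.0.3, besides Trim Galore 0.6.7, FastQC and SAMtools 1.9, and the builds GRCm39 and mm10 are both named; which build and annotation the counts rest on, and whether strand was used, are not stated. Genes kept by filterByExpr (16166) were tested with edgeR 4.0.16 in R 4.3.3 (TMM, quasi-likelihood F test, group as the only term, all 12 libraries in 1 fit), with Benjamini-Hochberg adjustment over all of them. Standard errors are the absolute log2 fold change divided by the square root of F. DESeq2 1.42.0, limma 3.58.1 (voom) and the other settings of the closing section were alternatives; leaving out HxD1, KO1 and KO3, repeating the filter on 6 libraries, and the bounds of genes at 0 without a library, were chosen after seeing the data. The code was tested on simulated counts.

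Named genes were Tet1, Tet2 and Tet3, up to 15 genes per direction with the largest called, non-overlapping change at a mean of at least 5 CPM, and, from each list, the called members with the lowest adjusted p (at most 4), or 2 members where none was called; others are named in the text for a count or a role. The comparison and the 48 gene lists were chosen with earlier results of these data known. Total counts were 20557016 to 28323877 in the 6 KO and WT libraries, and 3 libraries a group limit the precision.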

Additional observations from a re-analysis of the deposited data

How the results depend on the processing

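The counts of called genes depended on the tool, the filter and single libraries. For KO against WT, DESeq2 called 617 genes (315 higher, 302 lower), of which 196 were among the 197 of edgeR, and gave 28 for KO against HxD and 17 for KO against V. With no filter on low counts there were 464 calls (250 higher, 214 lower), 10 and 5. With a mean of at least 5 CPM, 68 were higher. With DESeq2's factors 1 gene was called against HxD, and with only the 6 libraries compared 1 against HxD and 1 against V; with the filter repeated on those 6, KO against WT gave 26 (6 higher, 20 lower). Without HxD1, KO1 and KO3 it gave 30 (13 higher, 17 lower). Leaving out 1 library at a time gave 31 to 357 calls, 11 to 229 higher and 20 to 128 lower, and 0 to 3 against HxD and against V. The cause was not tested.

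Whether equal replicate numbers pair the samples is not stated. Deviations of same-numbered KO and WT libraries correlated at 0.103, 0.138 and -0.0204, and those of differently numbered libraries at -0.21 to 0.114. With 3 libraries a group these values cannot decide it. With the replicate block there were 285 calls for KO against WT, 2 against HxD and 1 against V.

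Log2 fold changes changed sign in 12 named genes under these settings, none of which was called. With limma-voom these were Nodal (-1.44), Pdgfra (-1.16) and Csf1r (1.11), and with the replicate block Pdgfra (-0.0435), Col3a1 (-1.78) and Csf1r (0.373). Without HxD1, KO1 and KO3, which left KO2 as the only KO library, they were Crabp1 (-0.0788), Col3a1 (-6.06) and Plvap (-0.244). Over the fits without 1 library the ranges were -0.484 to 0.128 for Diablo, -0.296 to 1.17 for Nodal, -0.296 to 0.843 for Plvap, -0.0504 to 0.373 for Hcfc1, -0.0301 to 0.355 for Mcl1, -0.0255 to 0.189 for Rxrb, -0.0343 to 0.314 for Crabp1, -0.87 to 2.06 for Pdgfra, -6.07 to 8.63 for Col3a1, -0.00509 to 0.682 for Cdh3, -9.77 to 7.05 for Hbb-bs and -3.09 to 7.91 for Csf1r. Genes under 5 CPM were rarely called.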
